A study of Homo sapiens with 12 samples.

Results

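The genes described here are 50 human genes of DNA replication and S phase, given as a named set and followed after knockdown of the transcription factor FOXA1 in prostate cancer cell lines. All 50 symbols were found in the count tables, which hold 60106 genes in each of the 12 libraries. RNA was sequenced from PC3 and VCaP cells transfected for 72 hours. The control siRNA targets no gene (NSI) and the other targets FOXA1 (siFOXA1), and each of the 4 groups has 3 libraries. The PC3 groups received 20 nM siRNA, grew in RPMI-1640 and were made into libraries with the TruSeq stranded mRNA kit. The VCaP groups received 40 nM siRNA, grew in DMEM and were made into libraries with the TruSeq total RNA kit. Cell line, dose, medium and kit changed together between the lines and cannot be told apart. PC3 is an established prostate cancer line from a bone metastasis, and VCaP is one from a vertebral metastasis. An siRNA lowers the messenger RNA and leaves the gene intact. The labels number the replicates but do not say whether they were separate cultures, so p-values measure the spread between these libraries, which may be technical.

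DNA replication is prepared in G1, when the origin recognition complex, CDC6 and CDT1 load the ring of MCM2 to MCM7 on DNA. In S phase, CDC45 and the GINS complex join that ring to form the active helicase, and primase, DNA polymerases, the sliding clamp PCNA and its loader RFC copy the strands behind it. Enzymes of nucleotide supply and histone chaperones work alongside the fork. Most of these genes are switched on together late in G1 by E2F transcription factors, which the retinoblastoma protein restrains, so their messenger RNAs follow the share of cycling cells. FOXA1 is a pioneer factor that opens chromatin for other transcription factors in prostate cells. In bulk RNA, fewer cells in S phase and less RNA per cell cannot be told apart.

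The promoters of these genes carried the letters that E2F factors are known to bind more often than promoters at large. Promoter windows of 300 bases, 250 before and 50 after the start site, were taken from RefSeq on GRCh38.p14, and 43 of the 50 genes had one. GINS4, MCM4, RPA3, MCM5, RPA2, E2F8 and POLD3 had no entry. The E2F words searched on both strands were TTTCCCGC, TTTCGCGC, TTTGCCGC and TTTGGCGC. RefSeq gave 35116 windows for 27305 genes, and a gene counted as matched if any of its windows matched. An E2F word was found for 24 of the 43 genes (55.8%). It was found for 3.99% of the 27305 genes and for 3 of 25 mitosis genes (12%). The stretches below, all upstream of the start site, are shown because they place E2F words before genes of 5 different roles. They were chosen after the matches were known, and capitals mark the E2F words on either strand. The MCM6 stretch, before a helicase ring subunit, lies at chr2:135876504-135876603 on the minus strand and holds 4 words, which overlap in pairs.
MCM6: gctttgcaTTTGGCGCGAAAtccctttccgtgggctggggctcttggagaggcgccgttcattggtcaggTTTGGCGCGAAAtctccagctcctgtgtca
The PCNA stretch, before the sliding clamp gene, lies at chr20:5126623-5126722 on the minus strand.
PCNA: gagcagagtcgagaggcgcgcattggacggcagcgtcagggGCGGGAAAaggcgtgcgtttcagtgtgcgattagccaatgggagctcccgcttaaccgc
The TYMS stretch, before the thymidylate synthase gene, lies at chr18:657553-657652 on the plus strand.
TYMS: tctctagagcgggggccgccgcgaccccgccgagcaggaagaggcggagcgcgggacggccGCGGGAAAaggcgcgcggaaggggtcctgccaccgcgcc
The E2F1 and E2F2 stretches, before genes of the E2F factors themselves, lie at chr20:33686386-33686485 and chr1:23531234-23531333, both on the minus strand.
E2F1: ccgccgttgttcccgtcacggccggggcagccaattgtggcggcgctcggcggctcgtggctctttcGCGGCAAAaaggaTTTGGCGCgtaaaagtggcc
E2F2: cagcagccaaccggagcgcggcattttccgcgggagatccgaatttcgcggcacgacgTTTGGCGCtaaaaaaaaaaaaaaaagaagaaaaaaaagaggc
The POLA2 stretch, before the B subunit gene of DNA polymerase alpha, lies at chr11:65261862-65261961 on the plus strand.
POLA2: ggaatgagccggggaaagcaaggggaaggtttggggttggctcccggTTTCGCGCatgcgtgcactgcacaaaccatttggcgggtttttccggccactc
The mitosis genes shared other letters. The cell cycle homology region, searched as TTTGAA and TTTAAA, matched in 23 of 25 mitosis genes (92%). It matched in 7 of the 43 replication genes (16.3%) and in 27.9% of all genes with a window. CCAAT matched in 60.5% of the replication genes, in 20 of 25 mitosis genes (80%) and in 39.7% of all genes with a window. Forkhead words (the word TGTTTAC, the word TGTTTGC and the word TATTTAC) are the letters bound by factors of the FOXA1 family. They matched in 4 of the 43 replication genes (9.3%) and in 11.5% of all genes with a window. These are matches of letters within short windows, all searched on both strands, and matches of different words could overlap. The base composition of the windows was not matched, and no test was made.

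The files held between 123140099 and 188226483 counts per PC3 library and between 48187047 and 59839211 per VCaP library. Levels are given below as CPM, counts put on a common library size after edgeR's TMM scaling. The least counted of the 50 genes was E2F2 in PC3, with 216 counts over the 3 NSI libraries. FOXA1 itself measured 296, 246 and 261 CPM under NSI in PC3 and 165, 184 and 164 CPM under siFOXA1, a log2 fold change of -0.65 (SE 0.10) with edgeR adjusted p = 0.00222. In VCaP it measured 457, 468 and 543 CPM under NSI and 85.1, 73.5 and 82.98 CPM under siFOXA1, a log2 fold change of -2.60 (SE 0.09) with edgeR adjusted p = 1.836e-07. The knockdown left 63.8% of the NSI level in PC3 and 16.5% in VCaP, and the VCaP change minus the PC3 change was -1.93 (SE 0.15) on the log2 scale (edgeR interaction adjusted p = 3.126e-07). By an exact permutation test (two-sided) p was 0.1 in both lines, which is the smallest p that 3 against 3 libraries allow. Each of 5 leukocyte markers averaged at most 2.72 CPM in any group, the level of CD14 in VCaP siFOXA1.

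PC3 NSI replicate 2 stood apart in these genes. It was the highest of the 3 PC3 NSI libraries for 50 of the 50 replication genes, by a median of 0.51 on the log2 scale over the mean of the other NSI libraries. The siFOXA1 library with the same number was the highest of its group for 38 of 50, by a median of 0.16. Among 30 genes of mitosis and the spindle, PC3 NSI replicate 2 was the highest for 17, by a median of 0.09. In VCaP the replication genes differed less between libraries of a group, with NSI replicate 3 the highest of its group for 40 of 50, by a median of 0.12, and siFOXA1 replicate 3 the lowest of its group for 36 of 50, by a median of -0.13. The latter library was also the lowest of its group for 30 of the 30 mitosis genes, by a median of -0.41. PC3 counts are therefore given with and without the libraries numbered 2, with the genes whose calls then differed.

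**Figure D1:**
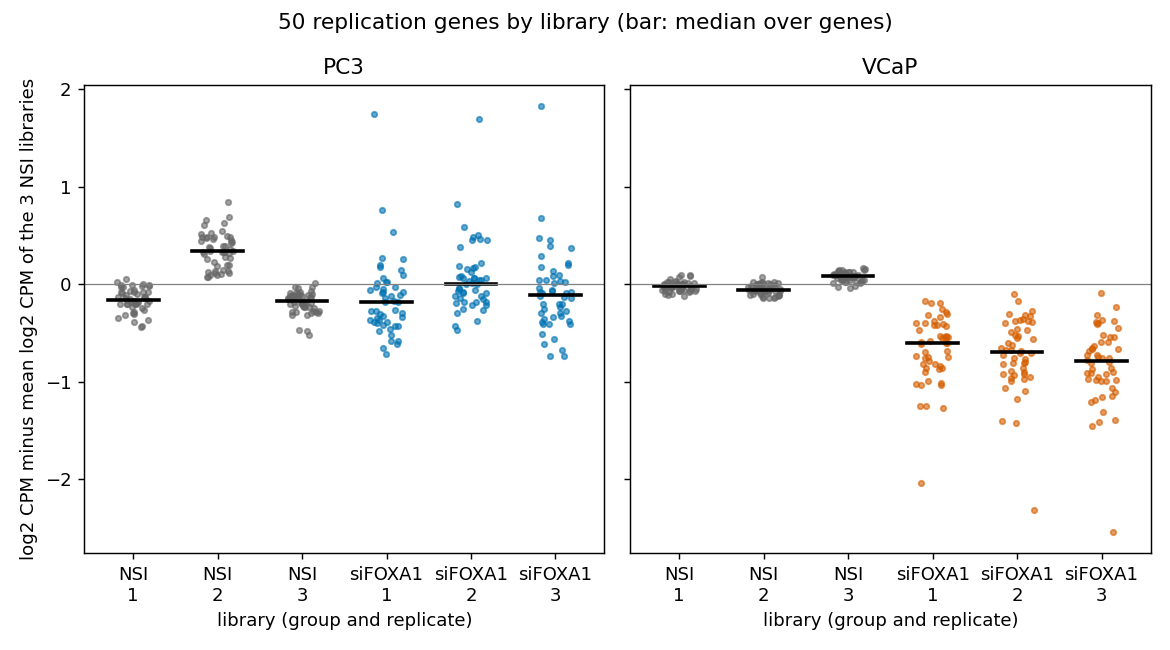
Each point is 1 of the 50 replication genes in 1 library, plotted as log2 CPM minus the mean log2 CPM of the 3 NSI libraries of that line, with a bar at the median over genes. PC3 NSI replicate 2 sits above the other PC3 NSI libraries, and the 3 VCaP siFOXA1 libraries sit below the VCaP NSI libraries.

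In VCaP nearly all genes of the set fell. Of 56 replication genes outside the set, 37 fell, 6 rose and 13 were not called. After FOXA1 knockdown 49 of the 50 genes fell and 0 rose at an adjusted p under 0.05 (edgeR quasi-likelihood test), where 45.8% of the 22925 genes tested were called, 23.3% lower and 22.5% higher. The median log2 fold change over the 50 genes was -0.70, against 0.02 over all genes tested. For 49 of the 50 the highest siFOXA1 library was still below the lowest NSI library, an order found in 28.0% of all genes tested. The falls ran from RRM2, left at 20.5% of its NSI level, to POLE, left at 85.1%. The only gene not called was POLA1, and the fold changes of all 50 were negative, with DESeq2 as well. The set was put together with falls of cell cycle genes in these libraries already known, so the count describes them and is no independent evidence.

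**Figure D2:**
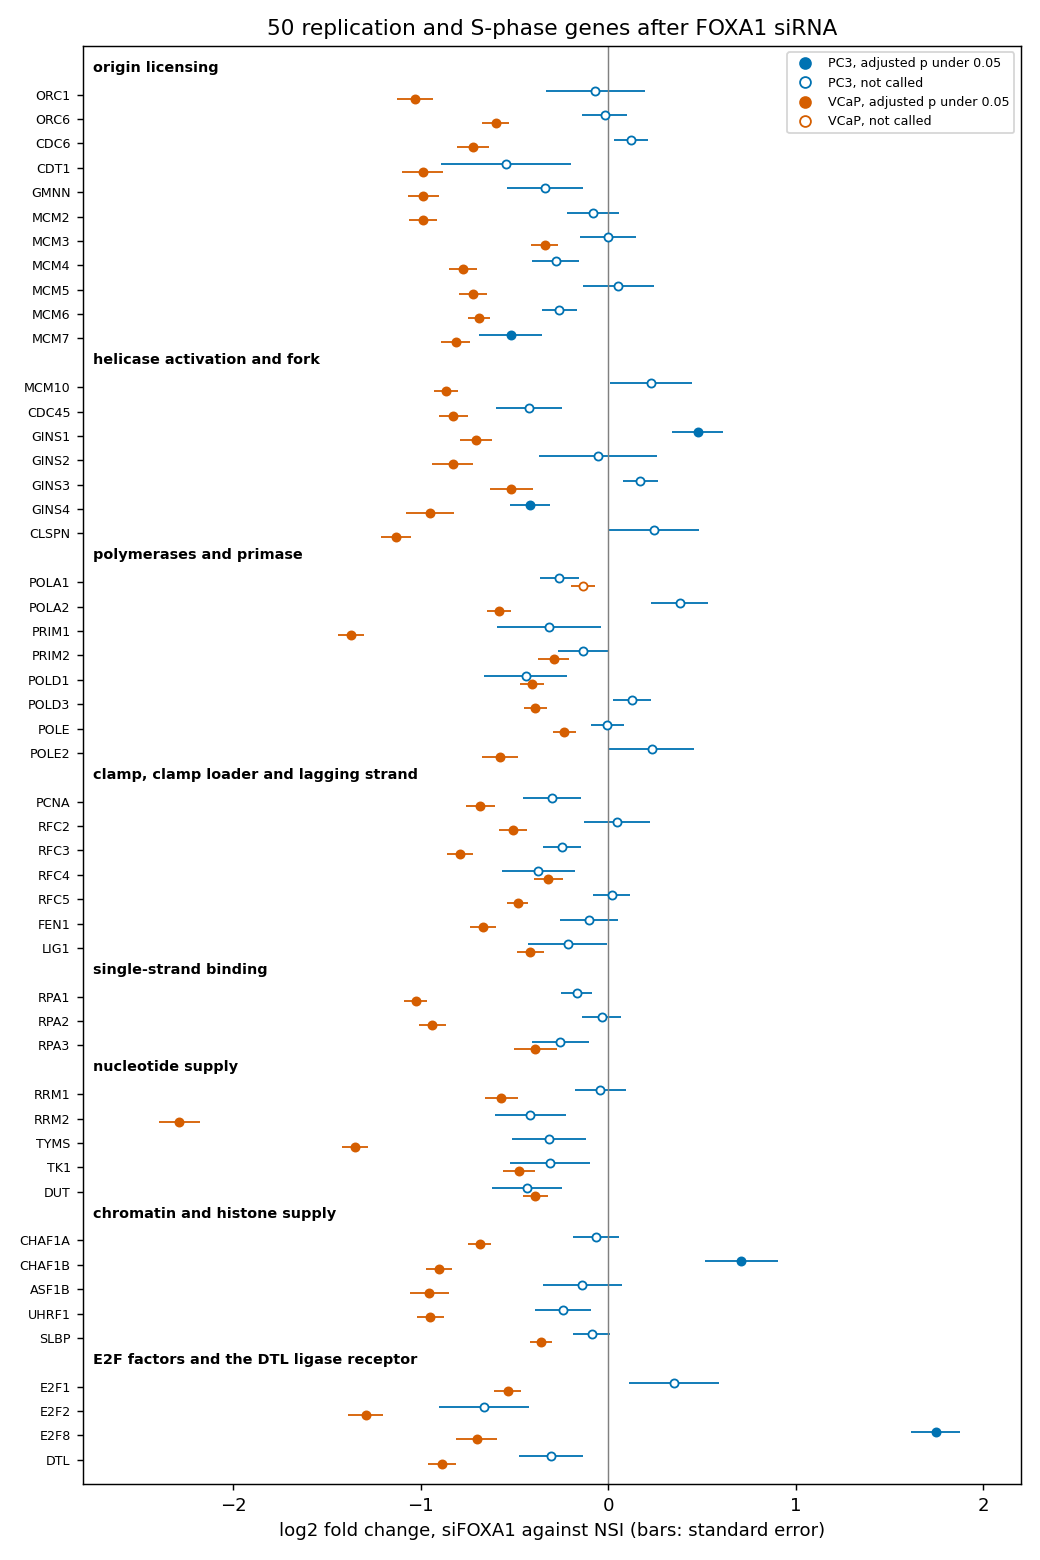
Log2 fold change of siFOXA1 against NSI for each of the 50 genes by role, with bars of 1 standard error, PC3 in blue and VCaP in orange, and filled points for an adjusted p under 0.05. The VCaP points of 49 genes are filled and lie left of 0, and 5 PC3 points are filled.

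All 11 genes of origin licensing fell in VCaP, with a median log2 fold change of -0.77. MCM2, a subunit of the helicase ring, had the smallest p of this group. It measured 174, 159 and 191 CPM under NSI and 87.2, 89.7 and 87.4 CPM under siFOXA1. Its libraries did not overlap, and it changed by -0.99 (SE 0.08) on the log2 scale (edgeR adjusted p = 8.43e-06). The ring holds its subunits in equal number, and their transcripts kept unequal shares. MCM3 kept 79.2% of its NSI level, from 89.1, 88.9 and 103 CPM under NSI to 71.9, 75.6 and 74.99 CPM. The other ring subunits kept between 50.4% (MCM2) and 62.1% (MCM6). ORC1, the largest subunit of the origin recognition complex, fell to 48.99%, and ORC6, its smallest subunit, to 66.03%. The loading factor CDT1 fell to 50.4% and its inhibitor geminin, encoded by GMNN, to 50.5%, so the activator and its inhibitor kept nearly the same share.

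The 7 genes of helicase activation and fork protection all fell in VCaP, with a median of -0.83. CLSPN, which encodes claspin, the mediator of the ATR checkpoint at the fork, fell the most of them. It measured 29.1, 30.4 and 30.3 CPM under NSI and 14.9, 14.02 and 12.1 CPM under siFOXA1, a change of -1.13 (SE 0.08, edgeR adjusted p = 5.889e-06). CDC45 and MCM10, which turn the loaded ring into a moving helicase, kept 56.5% and 54.9%. The subunits of the GINS complex kept between 51.9% (GINS4) and 69.96% (GINS3). GINS1, which rose in PC3 as described below, went from 62.7, 65.1 and 64.9 CPM under NSI to 44.1, 40.1 and 34.3 CPM in VCaP. All of its VCaP siFOXA1 libraries were below the NSI libraries.

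The polymerases and primase gave both the second largest and the smallest change of the set in VCaP, with a group median of -0.40. PRIM1, the catalytic subunit of primase, measured 36.2, 38.6 and 40.2 CPM under NSI and 15.8, 14.3 and 14.4 CPM under siFOXA1. That is a log2 fold change of -1.37 (SE 0.07, edgeR adjusted p = 8.253e-07). POLA1, the catalytic subunit of DNA polymerase alpha, which works in 1 complex with primase, measured 52.7, 59.5 and 57.4 CPM under NSI and 49.3, 52.5 and 52.9 CPM under siFOXA1. The POLA1 groups overlapped by a small margin, and its log2 fold change of -0.13 (SE 0.06) was not called (edgeR adjusted p = 0.117). It was called without VCaP NSI replicate 1, at -0.20 (adjusted p = 0.0467), and its adjusted p ran from 0.0467 to 0.459 over the 16 alternatives. The other subunits of that complex, POLA2 and PRIM2, kept 66.8% and 81.8%. POLA2 went from 74.9, 74.6 and 82.4 CPM under NSI to 53.5, 52.6 and 48.9 CPM. The 4 genes of this complex thus moved by unequal amounts. POLE, the catalytic subunit of the leading-strand polymerase, went from 112, 104 and 112 CPM under NSI to 89.5, 96.9 and 92.9 CPM and had the smallest fall that was called, -0.23 (SE 0.06). POLE2, POLD1 and POLD3, the other genes of the set for polymerases epsilon and delta, kept 67.04%, 75.4% and 76.4%. Of their subunits outside the set, POLD2 fell, at -0.28, POLD4 rose, at 0.53, and POLE3 and POLE4 were not called.

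The 7 genes of the set for the clamp, its loader and the lagging strand all fell in VCaP, with a median of -0.51. RFC1, a loader subunit outside the set, was not called in VCaP, at 0.0036 (SE 0.06). RFC3, a loader subunit, had the smallest p and measured 36.8, 37.2 and 42.04 CPM under NSI and 22.96, 22.8 and 21.3 CPM under siFOXA1 (log2 fold change -0.79, SE 0.07, edgeR adjusted p = 2.059e-05). RFC4, another subunit of the same loader, measured 16.7, 16.6 and 17.7 CPM under NSI and 14.8, 13.2 and 12.8 CPM under siFOXA1 and had the smallest fall of this group, -0.32 (SE 0.08). PCNA, the clamp itself, kept 62.4%. FEN1, the nuclease that trims Okazaki fragments, kept 63.01%, and LIG1, the ligase that joins them, kept 75.02%. The 3 subunits of replication protein A, which coats single-stranded DNA, also fell. RPA1 measured 117, 116 and 128 CPM under NSI and 59.1, 57.4 and 60.6 CPM under siFOXA1, a change of -1.03 (SE 0.06, edgeR adjusted p = 2.193e-06). RPA2 kept 52.2% and RPA3 kept 76.5%.

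RRM2, the regulatory subunit of ribonucleotide reductase, had the largest fall of the 50 genes in VCaP. It measured 125, 123 and 120.0 CPM under NSI and 29.8, 24.6 and 21.1 CPM under siFOXA1. The groups were far apart, with a log2 fold change of -2.29 (SE 0.11, edgeR adjusted p = 6.713e-07). RRM2 lies on GRCh37 at chr2:10260825-10271546 on the plus strand. Of its exonic length 27.9% is shared with AC104794.5 on the same strand, whose reads cannot be told from its own. The same limit holds for 30.06% of the exonic length of PRIM2, 12.08% of that of POLD1 and 2.13% of that of FEN1. RRM1, the large subunit of the same enzyme, kept 67.4%. TYMS, which makes the thymidine nucleotide from deoxyuridine monophosphate, went from 57.7, 55.9 and 62.7 CPM under NSI to 24.7, 22.1 and 22.4 CPM, a change of -1.35 (SE 0.07, edgeR adjusted p = 8.408e-07). TK1, the salvage enzyme for thymidine, kept 71.9%. DUT, which removes deoxyuridine triphosphate from the pool, measured 39.2, 42.6 and 45.6 CPM under NSI and 33.95, 32.3 and 31.1 CPM under siFOXA1. The nucleotide genes thus all fell, with RRM2 and TYMS below the others.

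The 5 genes of chromatin and histone supply fell in VCaP with a median of -0.90. CHAF1B, a subunit of the chromatin assembly factor that deposits histones behind the fork, measured 53.1, 49.04 and 54.9 CPM under NSI and 29.7, 27.9 and 26.4 CPM under siFOXA1 (log2 fold change -0.90, SE 0.07, edgeR adjusted p = 7.368e-06). The histone chaperone ASF1B kept 51.6% and UHRF1, which helps copy DNA methylation, kept 51.8%. SLBP, which binds the stem-loop of histone messenger RNAs, had the smallest fall of the group and kept 78.2%. The E2F genes fell too. E2F2, an activator, measured 29.7, 25.2 and 28.6 CPM under NSI and 11.7, 12.3 and 10.1 CPM under siFOXA1 (log2 fold change -1.29, SE 0.09, edgeR adjusted p = 5.872e-06). E2F1, also an activator, kept 68.99%. E2F8, a repressor of E2F targets, went from 18.9, 17.5 and 18.5 CPM under NSI to 12.5, 12.04 and 9.28 CPM, a change of -0.70 (SE 0.11). DTL, the receptor of the ubiquitin ligase that removes CDT1 in S phase, kept 54.2%.

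**Figure D3:**
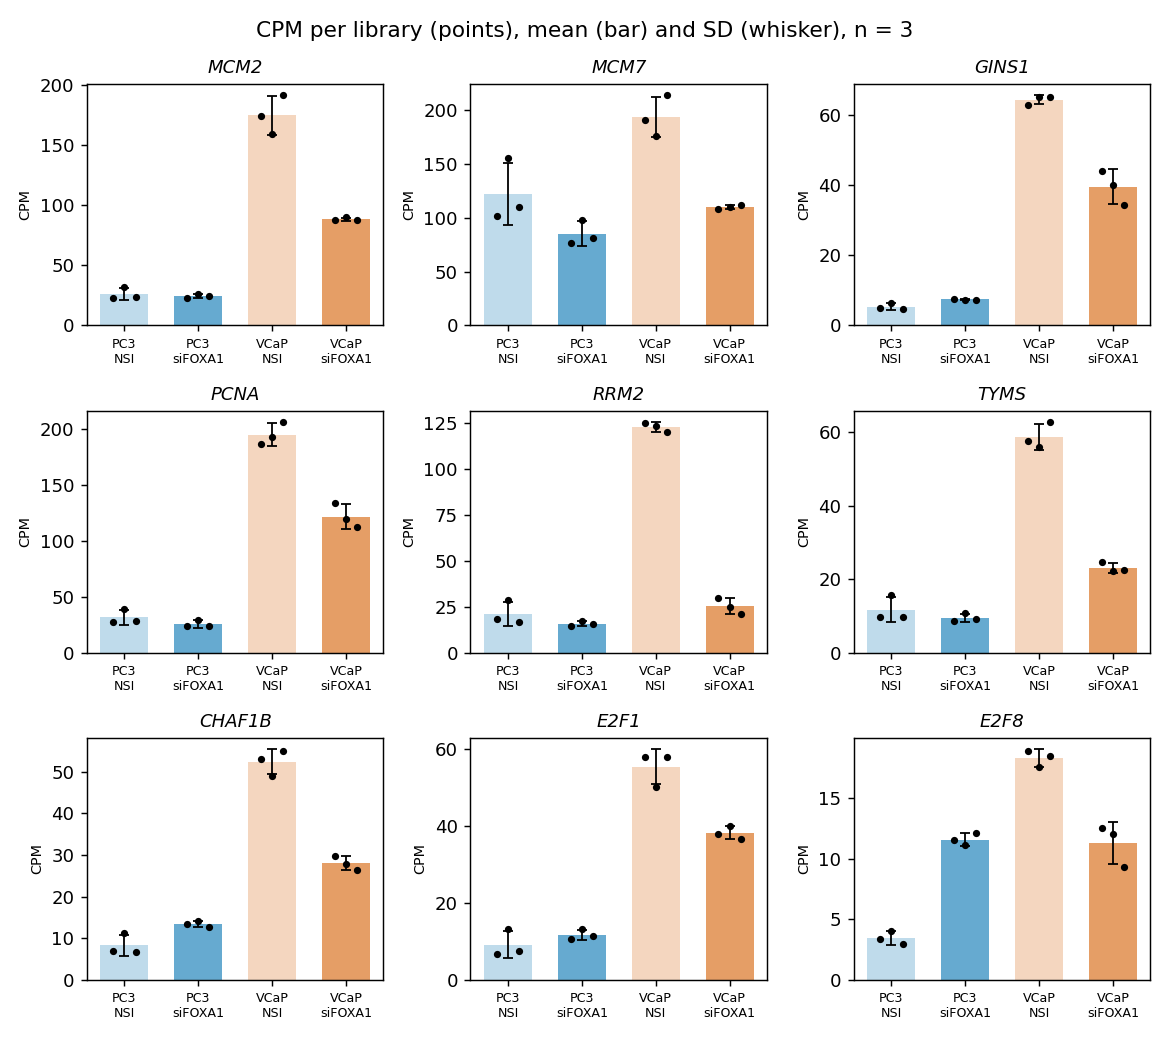
CPM of 9 replication genes in each library (points), with the mean as a bar and 1 SD as a whisker (n = 3). All 9 genes are lower in VCaP siFOXA1 than in VCaP NSI, and in PC3 the E2F8, CHAF1B and GINS1 libraries lie higher in siFOXA1 than in NSI.

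Genes with and without an E2F word in the promoter had close medians in VCaP. There the 24 genes with such a word had a median log2 fold change of -0.71, and the 19 genes with a promoter entry and no such word had a median of -0.67. In PC3 the same medians were -0.23 and -0.10. RRM2, PRIM1 and CHAF1B are among the genes without a match in the window, and MCM6, PCNA, TYMS, E2F1, E2F2 and POLA2 are those whose letters are printed above. No test was made of this difference.

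In PC3 few of the replication genes were called, and those few went both ways. MCM7 and GINS4 fell, E2F8, CHAF1B and GINS1 rose, and 45 of the 50 were not called, where 27.0% of the 26435 genes tested were called, 12.1% lower and 15.0% higher. The called share of the set, 5 of 50, was below that background. The median log2 fold change over the 50 genes was -0.12, against 0.02 over all genes tested, and 35 were negative. The groups were fully separated with siFOXA1 below NSI for 9 of the 50 (20.5% of all genes) and with siFOXA1 above NSI for 4 (23.9% of all genes).

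The PC3 counts depended on how the libraries numbered 2 were handled. With the replicate number as a block, 15 of the 50 genes were lower and 5 higher, where 21.0% of all genes were called lower and 21.7% higher. The genes then called lower were MCM4, MCM6, MCM7, CDT1, CDC45, GINS4, POLA1, POLD1, PCNA, RFC3, RFC4, RRM2, TYMS, DUT and UHRF1, and those higher were E2F8, CHAF1B, GINS1, POLA2 and E2F1. Without PC3 NSI replicate 2, 1 was lower (GINS4) and 7 were higher, where 11.9% of all genes were called lower and 15.8% higher, and the median over the 50 genes was 0.07. With both libraries numbered 2 left out, 6 were lower and 8 higher, where 18.5% and 19.5% of all genes were called, and the median was 0.0008. CLSPN, POLA2, E2F1 and MCM5 were called higher without NSI replicate 2 and with both left out, while MCM7 was called lower with both left out and not without NSI replicate 2 alone. With both left out DUT, POLD1, PCNA and CDC45 were also called lower and RFC2 higher. Leaving out 1 library at a time gave between 1 and 8 calls in all, where between 14.6% (without siFOXA1 replicate 1) and 27.8% (without NSI replicate 2) of all genes were called. E2F8 was called higher under each of the 17 alternatives, with log2 fold changes between 1.64 and 1.90.

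**Figure D4:**
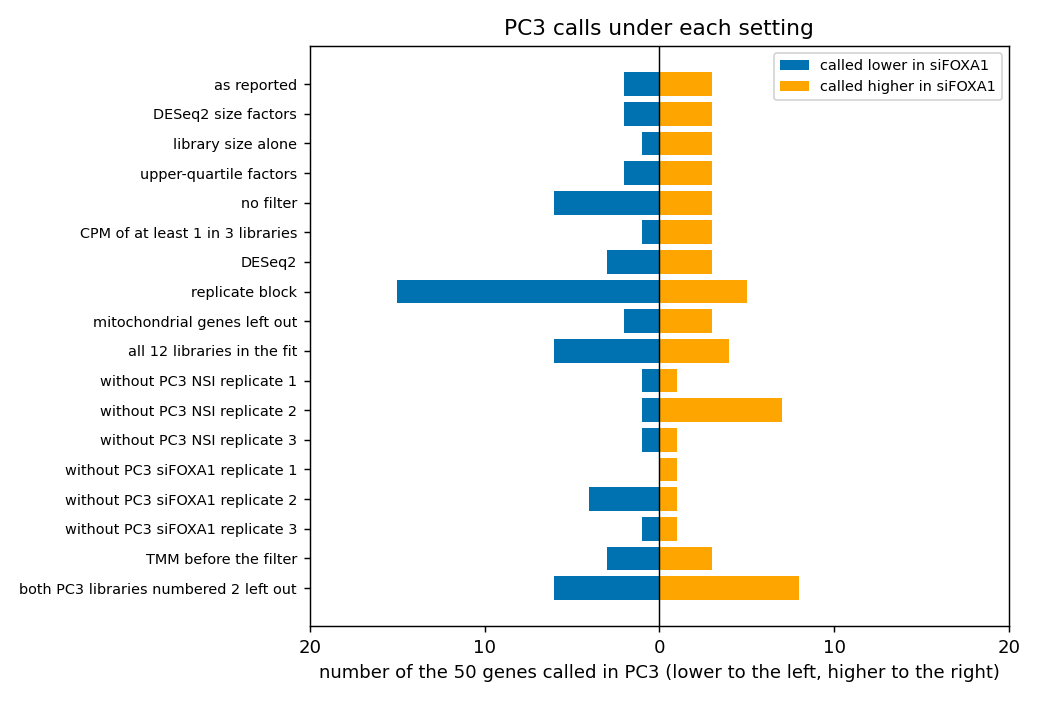
Number of the 50 replication genes called lower (bars to the left) and higher (bars to the right) in PC3 siFOXA1 against NSI, as reported and under each of 17 alternatives. The reported fit has 2 lower and 3 higher, and the replicate block has 15 lower and 5 higher.

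E2F8 had the largest change of the 50 genes in PC3, and it was upward. It lies on GRCh37 at chr11:19245610-19263167 on the minus strand and encodes a repressor of E2F targets. It measured 3.41, 4.02 and 2.94 CPM under NSI and 11.5, 11.1 and 12.1 CPM under siFOXA1. The groups did not overlap, and the log2 fold change was 1.75 (SE 0.13, edgeR adjusted p = 4.938e-05). CHAF1B measured 6.95, 11.2 and 6.56 CPM under NSI and 13.5, 14.2 and 12.8 CPM under siFOXA1, a change of 0.71 (SE 0.19, edgeR adjusted p = 0.0268). GINS1 measured 4.97, 6.37 and 4.599 CPM under NSI and 7.63, 7.28 and 7.298 CPM under siFOXA1, a change of 0.48 (SE 0.14, edgeR adjusted p = 0.0311). In both of these genes the 3 siFOXA1 libraries lay above the NSI libraries, with NSI replicate 2 the nearest to them. Their calls were lost on leaving out any 1 of 5 libraries, all but NSI replicate 2, with adjusted p then between 0.0505 and 0.0938 for CHAF1B and between 0.0522 and 0.1145 for GINS1. E2F1 measured a log2 fold change of 0.35 (SE 0.24) and POLA2 of 0.38 (SE 0.15), neither called. POLA2 had 10.9, 15.2 and 10.5 CPM under NSI and 14.4, 16.8 and 16.4 CPM under siFOXA1, and NSI replicate 2 was the only NSI library inside the siFOXA1 range. Without that library POLA2 was called, at 0.57 (edgeR adjusted p = 0.00485), and CHAF1B reached 0.99 (adjusted p = 0.000276).

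The genes lower in PC3 had small changes. MCM7 measured 101, 155 and 110.2 CPM under NSI and 76.03, 98.1 and 81.5 CPM under siFOXA1, a change of -0.52 (SE 0.17) with edgeR adjusted p = 0.0496, just under the threshold. Its value without NSI replicate 2 was -0.31 (adjusted p = 0.0775), and the adjusted p ran from 0.000296 to 0.17 over the 17 alternatives. GINS4 measured 5.27, 5.88 and 5.07 CPM under NSI and 4.02, 3.999 and 4.13 CPM under siFOXA1, a change of -0.42 (SE 0.11, edgeR adjusted p = 0.0231). Both groups of GINS4 were narrow and did not overlap, and its call was lost without NSI replicate 1 (adjusted p = 0.0517) and without siFOXA1 replicate 1 (0.0945). PC3 reads were counted without regard to strand, and exons on the other strand cover 7.59% of the exonic length of MCM7 and 23.6% of that of GINS4. Reads of those partner genes cannot be told from theirs in PC3. Of the 50 genes, 17 had such an overlap, over more than 10% of the length in GINS3, GINS4, TYMS and DUT.

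The other genes were not called in PC3, and in each of them replicate 2 was the highest NSI library. E2F2 was barely detected, at 0.4498, 0.573 and 0.371 CPM under NSI and 0.277, 0.329 and 0.274 CPM under siFOXA1 (log2 fold change -0.66, SE 0.24, edgeR adjusted p = 0.0736). CDT1 measured 3.75, 8.68 and 3.45 CPM under NSI and 3.23, 4.64 and 3.02 CPM under siFOXA1, so that NSI replicate 2 alone was far above the rest. Its log2 fold change was -0.54 (SE 0.34) with that library and 0.0046 without it, and neither was called. RRM2, the gene with the largest fall in VCaP, measured 18.03, 28.4 and 16.9 CPM under NSI and 14.7, 17.03 and 15.8 CPM under siFOXA1 (log2 fold change -0.41, SE 0.19, edgeR adjusted p = 0.136). Without NSI replicate 2 its change was -0.14 (adjusted p = 0.299). PRIM1 measured 3.605, 7.63 and 4.13 CPM under NSI and 3.61, 5.08 and 3.65 CPM under siFOXA1. TYMS measured 9.72, 15.7 and 9.69 CPM under NSI and 8.49, 10.7 and 9.05 CPM under siFOXA1. In these 3 genes siFOXA1 replicate 2 lay above the lowest NSI library, so the groups overlapped. MCM2 measured 22.7, 32 and 23.8 CPM under NSI and 23, 26.6 and 24.7 CPM under siFOXA1. Its groups overlapped, with NSI replicate 2 the highest of the 6. MCM3 measured 35.6, 50.1 and 33.1 CPM under NSI and 38.1, 40.7 and 40.01 CPM under siFOXA1, with a log2 fold change of 0.0008 and an SE of 0.15. POLE measured 28.5, 31.1 and 27.5 CPM under NSI and 28.1, 27.98 and 30.8 CPM under siFOXA1, with -0.0038 and an SE of 0.09. These were the smallest changes of the set in PC3.

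The 8 role groups had PC3 medians from -0.32 to 0.17. Origin licensing had a median log2 fold change of -0.08 with 1 of 11 genes called, and helicase activation and fork protection had 0.17 with 2 of 7 called. The polymerases and primase had -0.07, and the clamp, loader and lagging-strand genes had -0.22, neither with a call. RFC3 measured 8.59, 9.902 and 8.97 CPM under NSI and 7.25, 7.998 and 7.91 CPM under siFOXA1. RPA1 measured 66.6, 69.96 and 63.1 CPM under NSI and 61.6, 58.6 and 57.5 CPM under siFOXA1. In both the siFOXA1 libraries lay below the NSI libraries and the edgeR test did not call them (adjusted p = 0.108 and 0.162). The 5 nucleotide supply genes were all negative, with a median of -0.32 and no call, and RRM2, TYMS and DUT of this group were called lower with the replicate block. DUT, one of them, measured 13.4, 19.1 and 13.9 CPM under NSI and 9.96, 14.5 and 9.98 CPM under siFOXA1, and in both groups replicate 2 was the highest. CLSPN measured 1.67, 2.56 and 1.27 CPM under NSI and 1.95, 2.29 and 2.27 CPM under siFOXA1, so that NSI replicate 2 alone was above the siFOXA1 libraries. CLSPN changed by 0.24 (SE 0.24) and was not called, but it was called higher without NSI replicate 2, at 0.56 (edgeR adjusted p = 0.0421), and with both libraries numbered 2 left out, at 0.52 (adjusted p = 0.0433). RFC4 measured 18.6, 28.7 and 17.2 CPM under NSI and 16.2, 18.99 and 14.6 CPM under siFOXA1, and the groups overlapped. POLA1 measured 19.04, 21.3 and 18.01 CPM under NSI and 16.1, 14.9 and 17.7 CPM under siFOXA1, with the siFOXA1 libraries below the NSI libraries and no call (edgeR adjusted p = 0.0999).

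The change in VCaP was lower than the change in PC3 for most of the set. In a fit of all 12 libraries together, the interaction was called for 33 of the 50 genes, all 33 with the VCaP change below the PC3 change, where 22.2% of the 30425 genes tested were called, 11.0% lower and 11.3% higher. The median difference was -0.56, against 0.05 over all genes tested. The count was 43 without PC3 NSI replicate 2, where 24.9% of all genes were called, and 44 without both PC3 libraries numbered 2, where 27.5% were. With the replicate block it was 37, all lower, where 29.0% of all genes were called, 13.8% lower. Its lowest value over 22 alternatives was 22, without VCaP NSI replicate 3, where 18.2% of all genes were called. FOXA1 was itself reduced less in PC3, and the part of knockdown depth, dose or kit in the difference cannot be told apart from the line.

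E2F8 gave the largest difference, -2.43 (SE 0.18, edgeR interaction adjusted p = 1.795e-07), with a rise in PC3 and a fall in VCaP. RRM2 followed with -1.86 (SE 0.22, adjusted p = 2.515e-05) and CHAF1B with -1.60 (SE 0.21, adjusted p = 4.565e-05). GINS1 was the third gene called higher in PC3 and lower in VCaP, with -1.16 (SE 0.16). The 3 genes whose difference was most positive were POLA1 at 0.14 (SE 0.13), RFC4 at 0.07 (SE 0.21) and DUT at 0.06 (SE 0.20), and the test called none of them. MCM7, PCNA, MCM3, CDT1 and TK1 were not called as different either, but all 5 were called, with the VCaP change lower, without PC3 NSI replicate 2 and with both PC3 libraries numbered 2 left out. Without PC3 NSI replicate 2 the difference of CDT1 went from -0.43 to -1.0004 (edgeR interaction adjusted p = 0.00267) and that of MCM7 from -0.28 to -0.51 (adjusted p = 0.0137). In the cross of both lines, 3 genes were higher in PC3 and lower in VCaP, 2 were lower in both, 44 were lower in VCaP and not called in PC3, and POLA1 was called in neither.

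**Figure D5:**
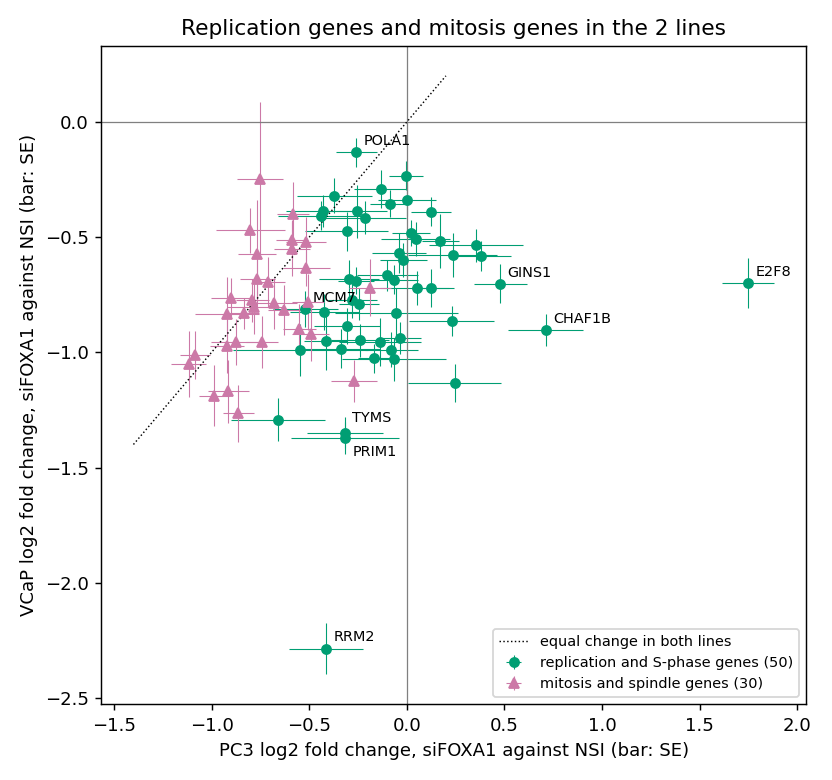
Log2 fold change of siFOXA1 against NSI in PC3 (horizontal axis) and VCaP (vertical axis), with bars of 1 standard error, for the 50 replication genes (circles) and 30 mitosis and spindle genes (triangles), and a dotted line of equal change. Most circles lie near 0 on the PC3 axis and below 0 on the VCaP axis, with E2F8 far to the right and RRM2 at the bottom.

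Genes of mitosis and the spindle fell in both lines. Of 30 such genes, 28 fell in PC3 with a median of -0.76 and 28 fell in VCaP with a median of -0.80. The share called lower over all genes tested was 12.1% in PC3 and 23.3% in VCaP. The interaction was called for 2 of the 30, INCENP and NDC80, where 22.2% of all genes tested were called. Its median over the 30 genes was 0.01. CCNA2, cyclin A, which acts in S phase and in G2, fell in PC3. It averaged 20.03 ± 1.12 CPM under NSI and 11.5 ± 0.498 CPM under siFOXA1 (SD, n = 3), a change of -0.80 (SE 0.09), and its change in VCaP was -1.11 (SE 0.13). Of 10 genes of cyclin-dependent kinase inhibitors and pocket proteins, 2 fell and 1 rose in PC3, and 3 fell and 3 rose in VCaP. Among all genes tested 27.0% were called in PC3 and 45.8% in VCaP, so these few calls do not set the list apart. CDKN1A, named here after its values were seen, encodes the inhibitor p21. It rose in VCaP, where it averaged 33.8 ± 7.93 CPM under NSI and 105 ± 15.4 CPM under siFOXA1 (SD, n = 3), a change of 1.64 (SE 0.16), and was not called in PC3, at 0.24 (SE 0.14). Their part in the change of the replication genes was not tested.

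A further 56 replication genes outside the set were examined. In VCaP 37 of them fell, 6 rose and 13 were not called, with a median of -0.36. In PC3 9 fell, 4 rose and 43 were not called, with a median of -0.14. Over all genes tested 23.3% were called lower and 22.5% higher in VCaP, and 12.1% lower and 15.0% higher in PC3, where the 13 calls were thus near the background of 27.0%. The largest falls in VCaP were those of CCNA2, of CCNE2, the cyclin E2 gene, at -1.11 (SE 0.11), and of TICRR, a factor that fires origins, at -0.96 (SE 0.08). The largest rises in VCaP were those of SHMT1, an enzyme of folate metabolism, at 1.03 (SE 0.06), of RRM2B, the p53-induced subunit of ribonucleotide reductase, at 0.63 (SE 0.07), and of ORC2 at 0.56 (SE 0.12). RRM2B, the alternative partner of RRM1, went from 61.7, 60.1 and 57.7 CPM under NSI to 101, 91.5 and 84.9 CPM, opposite to RRM2. ORC2 fell in PC3, at -0.58 (SE 0.09), and the difference between the lines was called (1.16, SE 0.17, edgeR interaction adjusted p = 0.000128).

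The largest falls in PC3 after CCNA2 were those of TOP2A, a topoisomerase, at -0.75 (SE 0.10), and of DBF4, the activator of the origin-firing kinase CDC7, at -0.69 (SE 0.08). The largest rise was that of SAMHD1, an enzyme that breaks down deoxynucleotides and is known to be induced by interferon. It measured 47.7, 41.1 and 52.7 CPM in PC3 NSI and 258, 229.9 and 261 CPM in PC3 siFOXA1, a change of 2.40 (SE 0.11, edgeR adjusted p = 4.782e-06), and -0.03 (SE 0.06) in VCaP, not called. E2F7, the close relative of E2F8, measured 102, 65.4 and 92.8 CPM under NSI and 131, 107 and 132 CPM under siFOXA1 in PC3, a rise of 0.51 (SE 0.16) with edgeR adjusted p = 0.0483. NSI replicate 2 was its lowest library. E2F7 fell in VCaP, at -0.76 (SE 0.09). The E2F7 call in PC3 was lost under 8 of 17 alternatives, among them DESeq2 size factors (adjusted p = 0.0619). MCM9, a helicase of recombination repair, rose in both lines, by 0.47 (SE 0.11) and 0.46 (SE 0.10). The PC3 call of MCM9 was lost without NSI replicate 1 (edgeR adjusted p = 0.0543), siFOXA1 replicate 1 (0.0892) and siFOXA1 replicate 3 (0.0647). In PC3 18 of 18 interferon response genes rose, with a median of 3.58, beside these changes, where 15.0% of all genes were called higher. In VCaP 10 of the 15 tested rose and 2 fell, with a median of 0.88, where 22.5% of all genes were called higher and 23.3% lower. The part of that response in the replication genes was not tested.

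Per length, the replication genes were ranked within each line. The TPM scale divides by gene length and was computed from the deposited counts and lengths, without the TMM scaling used for CPM. On the TPM scale PCNA ranked first in VCaP NSI at 111.3 ± 8.70 TPM (SD, n = 3). MCM4 at 66.0 ± 2.62 and TK1 at 53.9 ± 4.02 TPM came next, and their spreads did not meet. MCM7 ranked first in PC3 NSI at 59.6 ± 12.4 TPM, followed by RPA2 at 49.9 ± 4.78 and PCNA at 38.0 ± 6.79 TPM, and the first of these gaps was within the spread. E2F2 ranked last in PC3 NSI at 0.159 ± 0.0293 TPM. In VCaP NSI GINS4 ranked last at 1.19 ± 0.0954 TPM. The summed TPM of all 50 genes was 869, 932 and 837 under NSI in VCaP, against 554, 499 and 412 under siFOXA1. In PC3 it was 517, 705 and 540.1 under NSI, against 550, 606 and 558 under siFOXA1. The VCaP groups did not overlap, and the PC3 groups did, with NSI replicate 2 the highest of the 6 libraries. Without TMM scaling, differences between libraries in these sums can depart from those in CPM. VCaP NSI replicate 3 had the lowest NSI sum, while by CPM it was the highest of its group for 40 of the 50 genes. Levels and ranks were not compared between the lines, since the library kits differ.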

How the data were processed

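Gene counts of 12 RNA-seq libraries were analysed, 3 in each of 4 groups. Each library has a table of deposited values, which are estimated counts per gene. The authors obtained them with featureCounts 2.0.0, per the file headers, over the exons of GENCODE version 28 (basic, lifted to GRCh37), dividing fragments that hit several places or genes, without strand in PC3 and on the reverse strand in VCaP. STAR 2.7.3a is named in the submitters' processing notes. Every row of the tables carries a gene identifier.

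Counts were rounded to whole numbers and tested in edgeR 4.0.16 (R 4.3.3): filterByExpr, TMM scaling, the quasi-likelihood test per line (two-sided) and an interaction term over all 12 libraries, with Benjamini-Hochberg adjustment over all genes tested in each of the 3 tests and calls at adjusted p under 0.05. Standard errors are the fold change divided by the root of the F statistic. The fitting code was first tested on simulated counts. The 50 genes, the other lists and the motif words were chosen with earlier results of these data known. Genes given with the value of every library are, per line, the 4 largest and 2 smallest changes of the set, the smallest adjusted p per role, genes called higher, and the 3 largest interactions of each sign. Of the other replication genes, the 3 largest rises and falls among the calls in each line are named.

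Libraries of a group differed by far more than counting noise (chi-square per degree of freedom of 11.0 or more), so all were kept as replicates. Whether replicate numbers pair the PC3 libraries was checked on 2 gene sets. After subtracting group means, libraries with the same number correlated at r = 0.15, 0.31 and 0.09 over all genes tested, which misses the limit of 0.1 for 1 pair. Over the 16613 genes averaging 1 CPM or more, a restriction chosen after seeing those values, they correlated at r = 0.45, 0.59 and 0.25. Libraries with different numbers correlated as well on that set, NSI replicate 1 with siFOXA1 replicate 3 at r = 0.35. NSI replicate 3 with siFOXA1 replicate 1 reached 0.24. Libraries numbered 2 correlated negatively with those of other numbers. The values thus set replicate 2 apart and do not tell replicates 1 and 3 from each other. The block is given beside the PC3 result, with a pairing that neither the labels nor these values establish. In VCaP 1 pair was at 0.03 to 0.04 on both sets, and the block stands with the alternatives. Alternatives covered scaling, filters, DESeq2 1.42.0, the block, mitochondrial genes and each library left out. TMM before the filter, and leaving out both PC3 libraries numbered 2, were added after seeing the data.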

Additional observations from a re-analysis of the deposited data

Results flagged for a closer look

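The response to siFOXA1 differed between VCaP and PC3 for 13 of the 20 replication genes of the set given with the value of every library. The call is by the interaction term of the edgeR fit over all 12 libraries at an adjusted p under 0.05. Of all 30425 genes tested, 22.2% were called, 11.0% lower. The 20 genes were picked partly by the size of their changes and interactions, so the count is no independent evidence. The differences, VCaP log2 fold change minus PC3 log2 fold change, were -2.43 for E2F8, -1.86 for RRM2, -1.60 for CHAF1B, -1.36 for CLSPN, -1.16 for GINS1, -1.04 for PRIM1 and -1.02 for TYMS. They were -0.95 for POLA2, -0.89 for MCM2, -0.84 for RPA1, -0.62 for E2F2, -0.53 for RFC3 and -0.51 for GINS4. All 13 were negative. The adjusted p stayed under 0.05 under each of 22 alternatives for E2F8, RRM2, CHAF1B, GINS1, CLSPN, PRIM1, TYMS, POLA2, MCM2, RPA1 and RFC3. It rose over 0.05 under 8 of 22 for E2F2, up to 0.109, and under 9 of 22 for GINS4, up to 0.127.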

How the results depend on the processing

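The FOXA1 fall kept its direction and call under all 17 alternatives in PC3 and all 16 in VCaP. The VCaP count of the 50 genes stayed between 48 and 49 except in the fit of all 12 libraries, which called 40. The share called over all VCaP genes tested was 45.8% as reported and 28.0% in that fit. The interaction count ran from 22 (18.2% of all genes) to 44 (27.5%). The PC3 count did not hold. It was 5 as reported (27.0% of all genes tested were called), 9 with no filter (16.7%), 10 with all 12 libraries in the fit (29.8%), 20 with the replicate block (15 lower, 5 higher, 42.7%), 14 with both libraries numbered 2 left out (38.1%), and 1 to 8 with 1 library left out (14.6% to 27.8%). The PC3 median ran from -0.24 to 0.0708 with 1 library left out. For the other replication genes in PC3, 13 were called as reported, 24 with the replicate block, 23 with both libraries numbered 2 left out and 7 to 13 with 1 library left out. Over all PC3 genes, 7149 were called as reported, 11297 with the block, and as few as 3945 without siFOXA1 replicate 1. The block called 49 of the 50 genes in VCaP (50.1% of all genes) and 37 in the interaction (29.0%). The cause of these shifts was not tested.

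Signs of single genes turned only where the change was not called, either as reported or with the other sign. MCM3 in PC3 was -0.0202 with DESeq2 size factors, -0.0203 with DESeq2, -0.0270 with no filter and with TMM before the filter, -0.0002 without mitochondrial genes, and -0.12 to 0.20 with 1 library left out. POLE in PC3 was 0.0548 with library size alone, 0.0253 with upper-quartile factors, 0.0345 with a filter of 1 CPM in 3 libraries, 0.0084 with all 12 libraries, 0.0712 with both libraries numbered 2 left out, and -0.0795 to 0.0452 with 1 left out. With 1 library left out, CDT1 in PC3 ran from -0.78 to 0.0046, PRIM1 from -0.52 to 0.0834 and MCM2 from -0.18 to 0.0891, each highest without NSI replicate 2. MCM2 was 0.0383 with both libraries numbered 2 left out. The interaction of DUT was -0.0245 with library size alone and -0.14 to 0.17 with 1 library left out. That of POLA1 was -0.0454 with both libraries numbered 2 left out and -0.0038 to 0.17 with 1 left out. That of RFC4 was -0.0181 with library size alone, -0.15 with both left out, and -0.22 to 0.13 with 1 library left out.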
